A study of Mus musculus with 16 samples.

Results

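Tumor monocytes are blood-derived myeloid cells found among the leukocytes of a tumor before they have taken on the full macrophage program. They were picked here by measured UMIs (unique molecular identifiers, the count of captured transcripts) in the CD45+ cells of MC38 tumors. A barcode was kept with at least 5 UMIs of Lyz2, at least 3 of Ly6c2, Plac8 and Chil3 together, and at most 1 of C1qa, C1qb and C1qc together. It also had 0 UMIs of the T cell receptor chains Cd3e, Cd3d and Cd3g, 0 of Cd79a, 0 of Fscn1 and fewer than 10 of S100a8. These thresholds held for 2109 of 9083 barcodes in 4 tumor CD45+ libraries, in a series of 37609 barcodes. Whatever these 13 genes show below describes the choice and supports nothing.

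The study profiled single cells in droplets from mice with and without Aire, the regulator that lets thymic epithelium display self antigens, under checkpoint blockade. The mice were C57BL/6 littermates of 8 weeks, Aire+/+ or Aire-/-, carrying the MC38 colon carcinoma line. They received an isotype control antibody or anti-PD1 (labelled aPD1) in 5 doses of 5 mg/kg, the first on day 0 and the last on day 14, and tissue was taken on day 19. Tumors of 4 to 6 mice were pooled into each library, so that every condition is 1 library and individual mice cannot be seen. Values in a row always give Aire+/+ before Aire-/-, and within each genotype isotype before anti-PD1.

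Classical monocytes leave the bone marrow through Ccr2, carry Ly6C on their surface and are drawn into inflamed tissue and tumors by the chemokines Ccl2, Ccl7 and Ccl12. In the tissue they can become macrophages or antigen-presenting cells, and a separate, Ly6C-low patrolling population stays along vessel walls. Interferon gamma, secreted by activated T and NK cells, acts on monocytes through Irf1 among other factors and turns on guanylate-binding proteins, immunity-related GTPases, antigen presentation and the T cell attractants Cxcl9 and Cxcl10.

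Members numbered 747 of 2936 barcodes, 510 of 2211, 467 of 1860 and 385 of 2076. They were deep cells of like depth: the median member held 11319, 11810, 11940 and 10797 UMIs and 2659, 2756, 2694 and 2533 genes. Mitochondrial UMIs made up 2.15%, 2.19%, 2.30% and 2.20% of the members' total. Summed over members, the libraries gave 8766496, 6248744, 5720512 and 4186715 UMIs, out of 38961020, 28780160, 24658741 and 23286592 in whole libraries. Pairs of tumor libraries shared 44 barcode sequences over 6 pairs, at most 14 in any pair, and 2 of the shared sequences were members in both libraries.

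Aire itself had 0 UMIs in the members of all 4 libraries, and 0, 2, 1 and 0 UMIs in whole tumor libraries. The sample records name a 3′ kit and the methods also a 5′ kit. A tag from either end can lie outside the deleted part of a gene, and the counts are few, so they do not check the genotype. Every library held Xist, at 154, 161, 178 and 167 CPM (UMIs per 1000000, summed over members, the scale used below), and none held a UMI of the 4 Y-linked genes listed.

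Near the thresholds, 31 members had exactly 5 Lyz2 UMIs and 38 barcodes missed by 1 UMI, with medians of 55, 64.5, 105 and 104 Lyz2 UMIs among members. For Ly6c2, Plac8 and Chil3 together 22 members sat at 3 UMIs and 18 barcodes at 2. The C1q threshold was the busiest edge, with 309 members at 1 UMI and 94 barcodes at 2 that met everything else. Another 34 barcodes were kept out by a single Cd3 UMI, 40 by a single Fscn1 UMI and 1 by S100a8 at 10 UMIs.

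The label fits the markers that the rule did not use. Ccr2, the receptor that brings monocytes out of the marrow, was at 426, 382, 459 and 526 CPM. Csf1r, the receptor for the monocyte growth factor, Cd14, the lipopolysaccharide coreceptor, and Ms4a4c, F13a1 and Vcan were present in every library. The 18 genes on the classical monocyte list together held 13715, 13131, 13601 and 13598 CPM. C1q macrophages of the same libraries, counted below, held 9456, 8506, 11162 and 12006 CPM of them, so that the list is not particular to members. Of the 18 genes, 0 were at 0 in the 4 libraries, which was also so for the macrophage and dendritic lists and lends the label nothing. Thbs1, the matrix glycoprotein thrombospondin 1 and a marker given for these cells, was at 939, 1366, 1615 and 1916 CPM. Among the genes that chose the cells, the lysozyme gene Lyz2 was at 7583, 8603, 11059 and 12837 CPM, and Ly6c2, which encodes the Ly6C antigen, at 2195, 3130, 2378 and 2664.

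Transcripts of other cell types differed in level, with dendritic and, in the Aire-/- libraries, cytotoxic genes the highest of the lists below. The 12 neutrophil genes summed to 106, 99.7, 116.9 and 117 CPM, led by Csf3r, with 2 of the 12 at 0 in all tumor members. The 7 B and plasma cell genes present in the table summed to 5.82, 8.80, 4.55 and 5.97 CPM, led by Cd79b, with 5 at 0. Basophil and mast cell genes (8, led by Gata2, 5 at 0) reached at most 1.57 CPM, and the 14 tumor and stromal genes (led by Pecam1, 2 at 0) stood at 10.5, 21.8, 12.4 and 11.2 CPM. The 16 dendritic cell genes, led by Bst2, summed to 997, 1106, 1082 and 945 CPM with 0 at 0. C1q macrophages of the same libraries held more of them, at 1276, 1521, 1393 and 1174 CPM, so that the sum is not particular to dendritic cells. Red cell and platelet genes (8, 1 at 0) summed to 68.2, 32.0, 21.0 and 1.43 CPM, most of it Pf4, a chemokine that macrophages also make. The part these cells had in any result was not tested.

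The 16 T and NK cell genes outside the rule summed to 98.2, 114, 332 and 882 CPM, with 0 of them at 0 and Gzmc, a granzyme of killer cells, the most abundant over all members. In the Aire-/- libraries most Gzmc UMIs sat in very few members, as 1083 of 1148 Gzmc UMIs under isotype and 1285 of 1773 under anti-PD1 came from 1 cell each. Of 102 Gzma UMIs in the Aire+/+ isotype library, 101 were in 1 cell, and of 732 Gzmb UMIs in the Aire-/- anti-PD1 library, 527 were in 1 cell. Members with 2 or more UMIs over a set of lymphocyte genes numbered 13, 4, 35 and 16, and cytotoxic gene ratios below are also given without them. That alternative, and leaving out the member richest in a gene, were chosen after the data were seen. Which of these are pairs of cells in 1 droplet was not tested.

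Within a library the members ranged from cells rich in Ly6c2 to cells nearly without it, and other genes followed that range. Members were split into 3 groups of like size by Ly6c2 UMIs after thinning to 3000 UMIs per cell. In the Aire+/+ isotype library the groups held 249 cells each, with 0 to 2, 2 to 7 and 7 to 54 Ly6c2 UMIs. Such groups are sections of a range and not cell types. Ace, the angiotensin-converting enzyme found on patrolling monocytes, ran opposite to Ly6c2 in each library. From the lowest to the highest group it stood at 181, 96.4 and 40.2 CPM under Aire+/+ isotype and at 188, 47.1 and 17.7 under Aire+/+ anti-PD1. The Aire-/- libraries gave 157, 64.1 and 4.27 CPM under isotype and 190.1, 72.9 and 20.7 under anti-PD1. Ear2, Treml4 and Cd209a were also highest in the lowest Ly6c2 group of all 4 libraries.

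The interferon-stimulated gene Isg15, a ubiquitin-like protein, ran with Ly6c2. In the same order it stood at 1813, 3142 and 4813 CPM under Aire+/+ isotype, 2190, 3000 and 4757 under Aire+/+ anti-PD1, 2772, 3024 and 5427 under Aire-/- isotype, and 1799, 2490 and 4300 under Aire-/- anti-PD1. Rsad2, Gbp2 and the Fc receptor gene Fcgr1 were likewise highest in the group with most Ly6c2 in all 4 libraries. Irf1, an interferon-induced transcription factor, ran the other way and was lowest in that group of each library, at 236, 292, 468 and 545 CPM against 333, 690.2, 804 and 901 in the group with least Ly6c2. Cxcl9 was highest in the group with least Ly6c2 in 3 of the 4 libraries, the exception being Aire-/- anti-PD1. These orders describe cells of 1 library each and carry no test.

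Shares of cells were counted after each cell was thinned to 3000 UMIs, beside T cells of the same library. The T cells had medians of 8458, 7676, 9100 and 8342 UMIs before thinning, and 0 cells of either kind were too shallow. Il1b, the inflammatory cytokine interleukin 1 beta, was seen in 89.8%, 85.9%, 90.6% and 88.1% of members and in 6.85%, 2.42%, 2.06% and 1.40% of T cells. Thbs1 was seen in 53.8%, 64.9%, 66.2% and 73.5% of members and in 1.49%, 0.807%, 1.18% and 0.108% of T cells. Without thinning the Thbs1 shares in members were 66.0%, 74.1%, 75.2% and 77.4%. Patrolling-type genes marked a minority, with Ace in 16.7%, 14.3%, 12.0% and 16.1% of members and in at most 0.108% of T cells. Mki67, a proliferation antigen, was seen in 0.536%, 0.784%, 1.29% and 0% of members, against 7.44%, 5.91%, 7.35% and 6.90% of T cells, which divide in tumors.

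The first question was whether monocytes took up a different part of the tumor leukocytes. Members made up 25.4% (95% Clopper-Pearson interval 23.9 to 27.1), 23.1% (21.3 to 24.9), 25.1% (23.2 to 27.1) and 18.6% (16.9 to 20.3) of barcodes. Intervals here and below cover counting error only, and with 1 library per condition no difference between genotypes or treatments was tested. The Aire-/- anti-PD1 library stood below the others, whose intervals overlapped. Its share was 0.804 times that of Aire+/+ under anti-PD1 (0.703 to 0.920) and 0.739 times that of Aire-/- under isotype (0.644 to 0.847). The Aire-/- to Aire+/+ ratio under isotype was 0.987 (0.877 to 1.11), and the anti-PD1 to isotype ratio in Aire+/+ was 0.907 (0.809 to 1.02).

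That lower share depends on what it is a share of. T cells numbered 336, 372, 340 and 928 by their Cd3 and Lyz2 UMIs. C1q macrophages, which are only some of the barcodes with at least 10 C1q UMIs, numbered 744, 521, 344 and 125. The barcodes taken out of the total below were all those with at least 10 C1q UMIs (1162, 765, 547 and 204) or at least 2 Cd3 UMIs (395, 394, 374 and 963). With Cd3 barcodes out of the total, members were 29.4%, 28.1%, 31.4% and 34.6%, and the Aire-/- anti-PD1 library was the highest of the 4. With C1q-rich barcodes out, they were 42.1%, 35.3%, 35.6% and 20.6%. Among barcodes with at least 5 Lyz2 UMIs they were 42.0%, 41.9%, 47.9% and 63.4%. Per C1q macrophage there were 1.004, 0.979, 1.36 and 3.08 members, so that monocytes outnumbered macrophages most in the Aire-/- anti-PD1 tumor pool. Beside all barcodes with at least 10 C1q UMIs, members were the more numerous in that library alone (385 against 204).

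**Figure D1:**
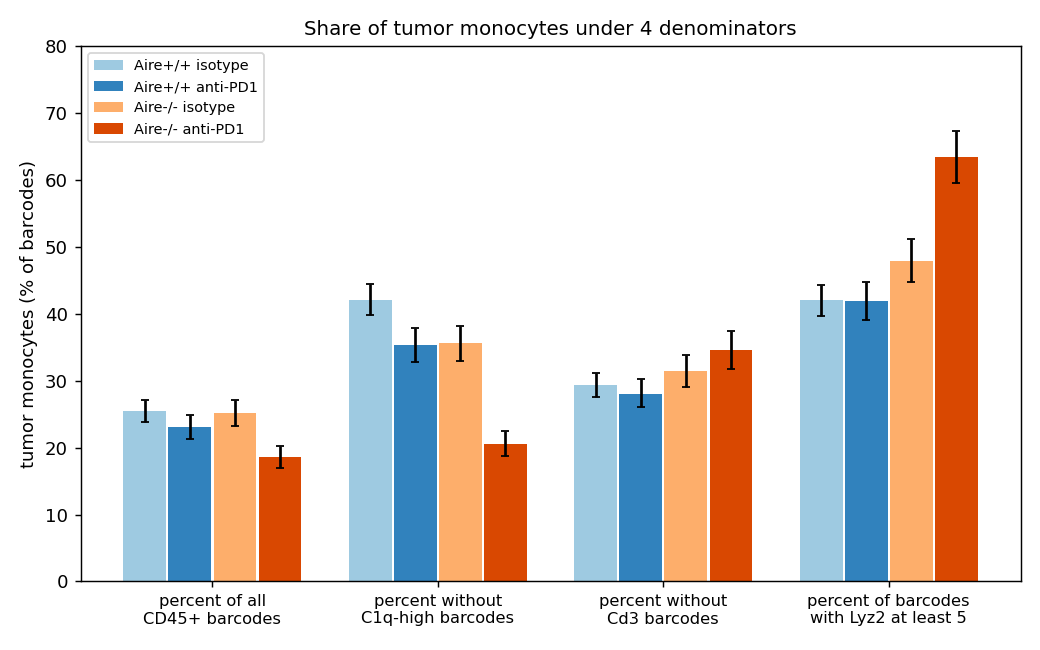
Bars give the percentage of barcodes that met the monocyte rule in each tumor CD45+ library under 4 denominators, with 95% Clopper-Pearson intervals as error bars (y axis, percent of barcodes). The Aire-/- anti-PD1 library is lowest among all barcodes at 18.6% and highest among Lyz2 barcodes at 63.4%.

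The comparison of genotypes asked how monocytes differ in tumors of mice without Aire. In tumor monocytes of Aire-/- mice, some genes of the interferon gamma response were called higher and some macrophage-associated genes lower than in Aire+/+ in each pair. A gene was called when it was past 2-fold with at least 100 UMIs over the 2 libraries compared. Under anti-PD1, 62 of 6468 genes (0.959%) were called higher and 106 (1.64%) lower in Aire-/-. Under isotype 46 of 7151 (0.643%) were higher and 51 (0.713%) lower. The pairs share no library, and of 6450 genes counted in both, 22 (0.341%) were higher and 14 (0.217%) lower in each.

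The genes higher in both pairs included Gzmc, BC002163, Iigp1, Cd209a, Nrg1, Dynlt1b, Cxcl9, Slc4a11, F5, Wdtc1, Gm4951, Plxnd1, Klrd1 and Il6. Also higher in both were Nr4a2, Rrad, Dmkn, Cnn3, D16Ertd472e, Slamf8 and Tmem2, which the naming rule did not reach and which were chosen after their values were seen. Without members that carried lymphocyte transcripts, 20 of the 22 remained, with Gzmc and Klrd1 lost. With no C1q UMI allowed 18 of the 22 remained, and after thinning to 3000 UMIs per cell, which takes many genes under the count minimum, 8 did. BC002163 (8.33, 8.16, 70.6 and 51.4 CPM) and Dynlt1b (66.9, 67.7, 186 and 223 CPM) have close copies in the genome, and the same step was seen in macrophages, so that which copy was counted is uncertain.

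Genes on the interferon gamma list were mostly higher in Aire-/- in both pairs. Of 29 listed genes counted, 5 were called higher and 0 lower under anti-PD1, where 0.959% and 1.64% of all genes were called, and 28 of 29 had a ratio above 1. Under isotype again 5 of 29 were called higher and 0 lower, where 0.643% and 0.713% of all genes were, and 27 were above 1. The list's median log2 ratio was 0.57 in each pair, beside medians of -0.03 and -0.06 over all genes. Here and below, genes of a list that are neither its most abundant nor among its 4 largest ratios were chosen after their values were seen.

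Cxcl9, the chemokine that draws Cxcr3-bearing T cells, had the largest called ratios of the list after Iigp1. It stood at 153, 221, 566 and 610 CPM, with both Aire-/- libraries above both Aire+/+ ones. The log2 ratio of Aire-/- to Aire+/+ was 1.47 (1.37 to 1.56) under anti-PD1 and 1.89 (1.80 to 1.98) under isotype. Thinned to equal depth, 7.36%, 11.4%, 20.3% and 24.7% of members had a Cxcl9 UMI, against 1.49%, 0.807%, 0.294% and 1.08% of T cells (unthinned members: 12.5%, 16.3%, 26.1% and 29.9%). Cxcl10, its relative and the most abundant gene of the list, was far higher in level, at 2667, 3038, 4564 and 3512 CPM, with log2 ratios of 0.21 under anti-PD1 and 0.78 under isotype.

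Iigp1, a GTPase that attacks the vacuoles of intracellular parasites, stood at 30.7, 50.4, 116 and 172 CPM. Its log2 ratios were 1.77 (1.58 to 1.96) under anti-PD1 and 1.91 (1.71 to 2.12) under isotype. T cells hold it too: after thinning, 6.02%, 9.41%, 17.6% and 20.5% of members had an Iigp1 UMI, against 18.2%, 11.3%, 11.8% and 11.7% of T cells (unthinned members: 13.8%, 20%, 32.5% and 32.7%). The share of members was thus below that of T cells in both Aire+/+ libraries and above it in both Aire-/- ones. The guanylate-binding protein gene Gbp2 stood at 624, 642, 1214 and 1237 CPM, near 2-fold in both pairs (0.95 and 0.96) and short of the call. A Gbp2 UMI was found in 52.9%, 51.8%, 71.3% and 66.8% of thinned members and in 19.9%, 20.7%, 25.0% and 24.5% of T cells (unthinned members: 71.2%, 71.2%, 84.2% and 79.7%). Gbp4 was at 70.5, 58.3, 105 and 129 CPM, and was called under anti-PD1 (1.14) and not under isotype (0.57). Gbp3 and Gbp5, chosen after their values were seen, had log2 ratios of 0.50 and 0.69 under anti-PD1 and 0.54 and 0.90 under isotype.

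Regulators of the pathway followed the same order. Irf1, a transcription factor that interferon induces, stood at 301, 453, 645 and 743 CPM (0.71 under anti-PD1, 1.10 under isotype). Socs1, the inhibitor that shuts off Jak signalling after interferon, stood at 165, 213, 401 and 417 CPM (0.97 and 1.28). For both genes the 4 libraries ranked alike, with Aire-/- above Aire+/+. The receptor chain Ifngr1 did not follow, at 255, 271, 253 and 300.2 CPM (0.15 and -0.01), and Ifngr2 was below 1 in both pairs (-0.47 and -0.20). Cd274, which encodes the ligand of PD1, was at 188, 217, 269 and 281 CPM (0.37 and 0.52), short of 2-fold in both pairs.

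Tumor macrophages of the same libraries also had Aire-/- above Aire+/+ for Cxcl9 (179, 314, 560 and 941 CPM) and Gbp2 (273, 256, 732 and 881 CPM). Nos2, the inducible nitric oxide synthase, was low in members at 12.8, 16.8, 17.5 and 38.7 CPM, and was called under anti-PD1 (1.20) but not under isotype (0.45). Whether macrophage RNA in the droplets has a part in these values was not tested.

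**Figure D2:**
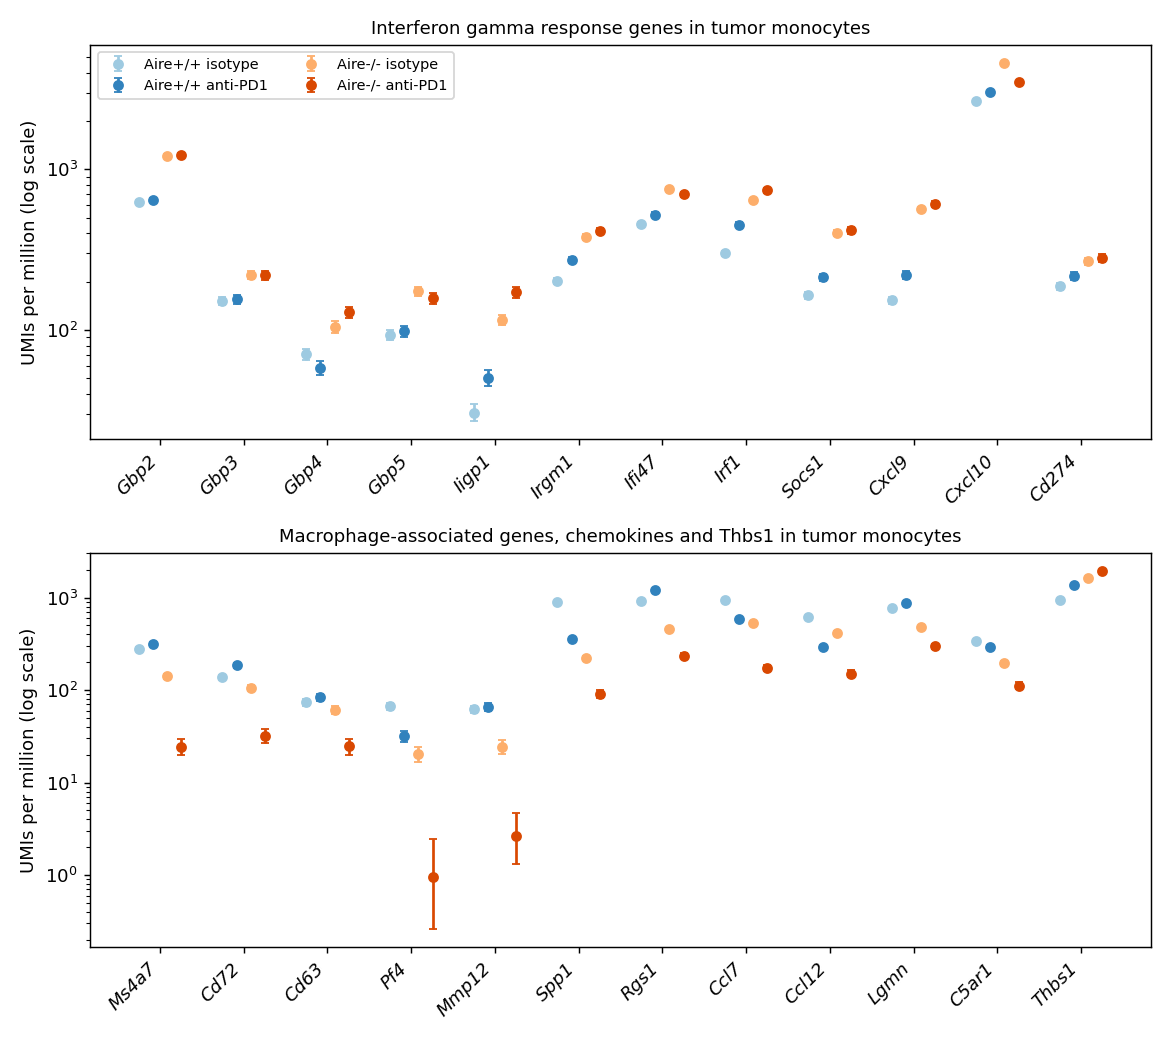
Points give CPM summed over tumor monocytes for each library (y axis, log scale), with exact Poisson 95% intervals, for interferon gamma response genes in the upper panel and macrophage-associated genes, chemokines and Thbs1 in the lower panel. Cxcl9 runs from 153 to 610 CPM with both Aire-/- libraries on top, while Ms4a7 runs from 314 down to 24.4 CPM with Aire-/- anti-PD1 lowest.

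Promoters were searched because so many genes of this list differed in the same direction. The motifs were GAAANNGAA, the letters of the element that interferon regulatory factors bind, and TTCNNNGAA, those of the gamma-activated site, each on both strands, the second being its own reverse complement. The windows, from RefSeq on build GRCm38.p6, run from 250 bases before to 50 after each gene start. Of 24 windows matched to the interferon gamma list, 13 (54.2%) held GAAANNGAA and 9 (37.5%) TTCNNNGAA, against 8.56% and 8.30% of all 32851 windows. For type I interferon genes 13 of 24 windows held the first (54.2%) and 3 the second (12.5%), and of 26 windows for hypoxia genes 2 (7.69%) and 0. The macrophage differentiation list, which holds genes called lower, had the first in 6 of 19 windows (31.6%) and the second in 1 (5.26%), so that the first motif was not particular to interferon genes. A match describes letters and is neither a site nor a cause. The windows printed, in lower case with matches in capitals, belong to genes whose levels are given above: Cxcl9 (chr5:92328030-92328329, minus strand), Gbp2 (chr3:142620413-142620712, plus), Irf1 (chr11:53769764-53770063, plus, the first of 2 windows, the second holding neither motif) and Socs1 (chr16:10785487-10785786, minus, with overlapping matches).
Cxcl9: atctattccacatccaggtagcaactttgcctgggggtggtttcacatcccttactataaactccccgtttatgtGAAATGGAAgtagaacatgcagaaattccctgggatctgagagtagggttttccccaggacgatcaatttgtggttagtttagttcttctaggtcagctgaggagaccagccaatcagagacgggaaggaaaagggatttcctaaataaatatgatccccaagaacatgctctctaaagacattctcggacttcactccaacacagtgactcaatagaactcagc
Gbp2: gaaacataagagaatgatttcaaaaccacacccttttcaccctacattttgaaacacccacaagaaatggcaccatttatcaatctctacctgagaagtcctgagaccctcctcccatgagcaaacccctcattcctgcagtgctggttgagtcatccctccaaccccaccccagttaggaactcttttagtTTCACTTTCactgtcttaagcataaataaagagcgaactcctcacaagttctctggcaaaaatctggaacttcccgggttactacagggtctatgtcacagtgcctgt
Irf1: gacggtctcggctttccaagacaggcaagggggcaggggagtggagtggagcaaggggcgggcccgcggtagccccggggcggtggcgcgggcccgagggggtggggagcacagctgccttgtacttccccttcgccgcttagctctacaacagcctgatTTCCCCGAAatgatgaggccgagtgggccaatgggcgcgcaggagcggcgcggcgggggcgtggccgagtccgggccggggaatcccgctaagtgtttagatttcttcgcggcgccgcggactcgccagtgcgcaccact
Socs1: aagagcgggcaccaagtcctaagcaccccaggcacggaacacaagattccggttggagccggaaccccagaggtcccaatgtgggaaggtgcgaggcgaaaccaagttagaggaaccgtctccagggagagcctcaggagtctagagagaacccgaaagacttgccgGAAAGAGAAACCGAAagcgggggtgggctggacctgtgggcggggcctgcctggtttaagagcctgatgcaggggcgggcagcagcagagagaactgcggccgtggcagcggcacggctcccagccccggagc

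Type I interferon genes did not share this pattern. Of 27 listed genes, 0 were called in any pair of libraries, and the median log2 ratio of Aire-/- to Aire+/+ was -0.40 under anti-PD1, with 22 genes below 1, and 0.28 under isotype, with 26 above 1. Isg15 stood at 3239, 3355, 3773 and 2812 CPM, lowest in Aire-/- anti-PD1. Rsad2, the antiviral enzyme viperin, stood at 1014, 1343, 1424 and 862 CPM, and Ifit3, an RNA-binding antiviral protein, at 694, 758, 731 and 425. Cmpk2, a mitochondrial nucleotide kinase encoded beside Rsad2, stood at 204, 263, 291 and 155 CPM, with log2 ratios of -0.76 under anti-PD1 and 0.51 under isotype. In each of these the Aire-/- anti-PD1 library was the lowest of the 4. Cxcl10, whose values are given above, is on this list too and is its most abundant gene, and there that library was not the lowest.

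No antigen presentation gene was called in either genotype pair. All 7 MHC class II genes counted were above 1 in both pairs, with medians of 0.25 under anti-PD1 and 0.24 under isotype and 0 called. H2-Aa, a class II chain, stood at 1669, 2232, 2075 and 2657 CPM, and the invariant chain Cd74, the most abundant, at 6979, 7639, 8005 and 9358. Class I genes had medians of 0.05 and 0.18 over 16 genes, with 0 called. The 4 Ifitm genes counted, antiviral membrane proteins, had medians of 0.41 and 0.32 with 0 called, led in ratio by Ifitm1 at 484, 499, 890 and 810.2 CPM.

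Inflammatory cytokines were mostly level, apart from a few genes. Il1b stood at 5712, 5226, 6026 and 5639 CPM, the most abundant of its list. Il6, a cytokine of the acute phase, was called in both pairs from low levels of 11.2, 15.2, 36.0 and 34.9 CPM (1.20 and 1.69). Il1rn, the antagonist of the interleukin 1 receptor, stood at 543, 682, 1172 and 832 CPM and was called under isotype (1.11) but not under anti-PD1 (0.29). The list's medians were 0.10 over 18 genes under anti-PD1, with 1 called higher, and 0.08 over 19 under isotype, with 2 called higher. Those calls stand beside 0.959% and 0.643% of all genes.

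Cd209a, a lectin of monocyte-derived and dendritic cells, was higher in a small subset of cells. It stood at 22.7, 32.8, 133 and 111 CPM, with both Aire-/- libraries above both Aire+/+ ones and log2 ratios of 1.76 under anti-PD1 and 2.55 under isotype. Without thinning, 2.41%, 2.55%, 7.92% and 7.53% of members had a UMI. C1q macrophages held 0.881, 0.114, 0.503 and 9.56 CPM of it. On the dendritic list, 2 of 8 genes counted were called higher under anti-PD1 (Cd209a and the growth factor receptor gene Flt3, 1.02) and 2 of 7 under isotype (Cd209a and the lectin gene Clec10a, 1.03). Of all genes, 0.959% and 0.643% were called higher in those pairs. Flt3 and Clec10a lost their calls with no C1q UMI allowed (0.89 and 0.95). The dendritic list's medians were 0.62 under anti-PD1, with 6 of 8 genes above 1, and 0.31 under isotype, with 4 of 7 above 1. Summed levels of dendritic genes are given above, and the part of dendritic cells was not tested. Nr4a2, an orphan nuclear receptor (82.7, 99.1, 188 and 217 CPM), was also higher in both Aire-/- libraries.

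Some genes linked to macrophage differentiation were called lower in Aire-/- monocytes in each pair. Of 16 listed genes counted under anti-PD1, 6 were called lower and 0 higher, where 1.64% and 0.959% of all genes were. The list had 15 genes below 1 and a median of -0.74, beside -0.03 over all genes. Under isotype 4 of 17 were called lower and 0 higher, where 0.713% and 0.643% of all genes were. There 16 were below 1, with a median of -0.27 beside -0.06 over all genes. The whole list summed to 5280, 6016, 4453 and 3769 CPM in members and 10172, 11713, 8780 and 6937 in macrophages, with Apoe the most abundant gene and 0 of 20 at 0.

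Ms4a7, a membrane protein of tissue macrophages, stood at 281, 314, 141 and 24.4 CPM. Both Aire-/- libraries were below both Aire+/+ ones, and Aire-/- anti-PD1 was far below all others. Its log2 ratio was -3.69 (-3.99 to -3.40) under anti-PD1 and -0.99 (-1.11 to -0.88) under isotype. Macrophages held much more, at 1430, 1498, 996 and 493 CPM. The members with exactly 1 C1q UMI numbered 94, 88, 86 and 41, and with those left out the Ms4a7 ratio under anti-PD1 was -3.75. After thinning, 23.3%, 23.3%, 12.2% and 5.46% of members had a UMI, beside 4.17%, 2.42%, 3.24% and 1.40% of T cells (unthinned members: 34.3%, 36.5%, 21.4% and 10.9%).

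Cd72, an inhibitory lectin, stood at 137, 186, 105 and 32.2 CPM (-2.53 under anti-PD1, -0.38 under isotype), and the tetraspanin Cd63 at 73.7, 83.2, 61.2 and 24.6 (-1.76 and -0.27). In the Aire-/- anti-PD1 library the thinned share of members with Cd72, 6.23%, was not above that of T cells, 6.25%. Gpnmb, a glycoprotein of lipid-laden macrophages, stood at 9.92, 35.9, 3.32 and 2.15 CPM (-4.06 and -1.58), though 82 of 224 UMIs in the Aire+/+ anti-PD1 library sat in 1 cell and its isotype ratio was -0.53 after thinning. Pf4 stood at 66.9, 31.5, 20.3 and 0.955 CPM (-5.04 and -1.72). Without the member richest in Pf4 in each library the isotype ratio was -2.53. The tetraspanin Cd9 (169, 106, 61.2 and 48.5 CPM) and Tmem119, a gene known from microglia (54.0, 46.4, 18.7 and 3.58 CPM), were called lower in both pairs, Cd9 with an anti-PD1 ratio of -1.13 that was -0.92 with no C1q UMI allowed.

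Not every macrophage gene was lower. Apoe, the lipid carrier, stood at 1099, 1653, 1005 and 991 CPM. Its log2 ratios, -0.74 under anti-PD1 and -0.13 under isotype, were short of 2-fold. Trem2, a lipid receptor, was called under isotype only, at the edge (-1.01), and not by the mean of the cells' own CPM (-0.80). Mrc1, the mannose receptor, went the other way under anti-PD1 at 0.58.

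Among genes called lower in both pairs, Spp1 and Rgs1 had the most UMIs. Spp1, which encodes the matrix protein osteopontin, stood at 907, 353, 224 and 90.5 CPM, with log2 ratios of -1.96 (-2.13 to -1.81) and -2.02 (-2.11 to -1.94). After thinning, 21.6%, 17.1%, 12.0% and 7.53% of members had an Spp1 UMI, against 7.44%, 6.72%, 7.94% and 9.48% of T cells, so that the share in Aire-/- anti-PD1 was not above that of T cells. Rgs1, a brake on chemokine receptor signalling, stood at 921, 1208, 453 and 237 CPM (-2.35 and -1.02). Its isotype call ended after thinning (-0.80), with the stricter Lyz2 or monocyte gene thresholds (-0.96 and -0.95) and by the mean of the cells' CPM (-0.88). It also ended without members over 2 times the median UMIs (-0.96) and with ratios centred on the median (-0.97). Mmp12, the macrophage elastase, stood at 61.8, 66.3, 24.5 and 2.63 CPM (-4.66 and -1.34), and its isotype ratio was -2.11 without the richest member. With no C1q UMI allowed 10 of the 14 lower genes remained, with at least 10 Lyz2 UMIs 8, and after thinning 4. The others were Mtss1, Snx24, Sdhaf1, Dpep2, Rnaset2b, Tgfbr1 and Hyi, of which Rnaset2b has a close copy and is uncertain. Dpep2, a membrane dipeptidase of leukotriene metabolism, stood at 182, 161, 81.5 and 50.6 CPM.

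Some monocyte attractants were lower along with these. Ccl7, a ligand of Ccr2, stood at 942, 587, 527 and 173 CPM (-1.76 under anti-PD1 and -0.84 under isotype), while Ccl2, the main ligand, ran from 2491 to 1677 with ratios of -0.36 and -0.14. Of the chemokines counted, 1 of 16 was called higher and 3 lower under anti-PD1 (Cxcl9 against Ccl7, Ccl8 and Pf4), with a median of -0.34. Over all genes 0.959% were called higher and 1.64% lower. The Ccl8 call (-1.21) ended after thinning (-0.25) and went to -5.88 with no C1q UMI allowed and to -3.95 without the richest member. Under isotype 1 of 15 was higher and 3 lower (Cxcl9 against Cxcl1, Cxcl3 and Pf4), beside 0.643% and 0.713% of all genes. The median was -0.14, and the Cxcl1 call (-1.09) ended after thinning (-0.14). Among receptors, C5ar1, which senses complement C5a, was the 1 of 7 called under anti-PD1, at 338, 292, 195 and 112 CPM (-1.38), with list medians of -0.30 and -0.19.

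Most genes counted on the lysosomal, hypoxia and lipid lists had ratios below 1 in each pair, and few were called. Of all genes, 1.64% were called lower under anti-PD1 and 0.713% under isotype. Among 19 lysosomal genes, 3 were called lower under anti-PD1 and 16 were below 1, with a median of -0.39, and 15 were below 1 under isotype with 0 called and a median of -0.19. Lgmn, the asparagine-cutting protease legumain, stood at 773, 873, 478 and 298 CPM (-1.55 and -0.69). The cathepsin gene Ctsl was at the edge of 2-fold under anti-PD1 and missed it at the stricter Lyz2 threshold (-0.78). Of 20 hypoxia and glycolysis genes, 16 were below 1 in each pair, with medians of -0.52 and -0.33. Tpi1, a glycolytic enzyme, stood at 717, 673, 526 and 359 CPM, whereas Hif1a, the oxygen-sensing transcription factor, was higher in Aire-/-, at 296, 330, 394 and 418. Egln3, the hydroxylase that marks Hif1a for destruction, was the 1 hypoxia gene called, under isotype (-1.23), and that call ended after thinning (-0.91). Lipid genes had medians of -0.46 over 12 genes, 1 called lower, and -0.27 over 13, 2 called lower.

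The remaining lists differed little. Their calls, here and in the next paragraph, stand beside 0.959% of all genes higher and 1.64% lower under anti-PD1. Under isotype those shares were 0.643% and 0.713%. Classical monocyte genes had 0 of 18 called in either pair, with medians of 0.16 and 0.12, and Mgst1, a microsomal detoxifying enzyme, came nearest at 209, 203, 302 and 380 CPM (0.90 and 0.54). Patrolling genes had medians of 0.03 and -0.34, with only the muscle-type enolase Eno3 called (-1.05 under anti-PD1). Matrix genes had medians of -0.13 over 17, with Spp1, Mmp12 and Mmp14 called lower, and -0.20 over 18, with Spp1, Mmp12 and F7 lower (F7 -1.34, and -0.04 after thinning) and the protease inhibitor Timp1 higher (1.30). Thbs1 was higher in Aire-/- and short of 2-fold, at log2 ratios of 0.49 and 0.78. Checkpoint genes had medians of -0.17 and -0.02 over 14, with the inhibitory receptor gene Havcr2 called lower under anti-PD1 (-1.22, at 184, 192, 128 and 82.4 CPM).

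Scavenger receptors had medians of -0.20 over 10 genes and -0.26 over 11, with Cd209a higher and Stab1 lower under anti-PD1 and Cd209a and Clec10a higher and Mgl2 lower under isotype. Mgl2, a lectin with few UMIs, turned to 2.43 after thinning. The 5 Fc gamma receptor genes had medians of -0.18 and -0.13 with 0 called. Transcription factors had medians of -0.16 and -0.09 over 21, with Cebpa, a factor of myeloid commitment, called lower under anti-PD1 (-1.25). Oxidative stress genes had medians of 0.10 and 0.08 over 17 with 0 called. Immediate early and heat shock genes had medians of -0.19 and -0.08, with the heat shock gene Hspa1b called higher under isotype (1.34). Cell cycle genes had medians of -0.14 over 5 and -0.17 over 8, with 0 called.

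Ratios of granzyme genes rested in large part on few cells. Gzma, the trypsin-like granzyme, stood at 11.6, 0.320, 1.57 and 111 CPM, with log2 ratios of 8.44 under anti-PD1 and -2.89 under isotype. Without members that carried lymphocyte transcripts the isotype ratio was 2.71, of the other sign, on few UMIs in each library. Gzmc stood at 5.82, 6.88, 201 and 424 CPM (5.94 and 5.11), and at 0.75 and 0.50 without those members. Gzmb, Prf1, Nkg7 and Xcl1, all of cytotoxic lymphocytes, were also among the 10 highest ratios under anti-PD1, with Tagap1, a gene with a close copy, and Plxnd1 and Nrg1. On the T and NK list 5 of 6 genes counted were called higher under anti-PD1, where 0.959% of all genes were. Under isotype 1 of 4 was higher and 1 lower, beside 0.643% and 0.713% of all genes. Without lymphocyte-transcript members the anti-PD1 ratios were 1.96 for Gzma, 1.55 for Gzmb and 1.38 for Prf1, from 8.44, 6.51 and 2.97, on few UMIs. In the Aire+/+ anti-PD1 library all 32 Nkg7 UMIs were in 1 cell, as were 32 of 33 Xcl1 UMIs. Their ratios without lymphocyte-transcript members are therefore not read. The 10 highest under isotype also held Sectm1a, Klrb1b and Tmtc2, and the 10 lowest Pgf, Nt5e, Hist1h1d, Tnfrsf23, Slc27a1 and Htra3. Slamf9 was among the 10 lowest under anti-PD1 at -2.05.

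The comparison of treatments asked how monocytes differ under anti-PD1 in each genotype. Few genes were past 2-fold, and those called lower in Aire-/- included some macrophage-associated genes and chemokines. In Aire+/+, 8 of 7271 genes (0.11%) were called higher and 19 (0.261%) lower under anti-PD1. In Aire-/-, 15 of 6251 (0.24%) were higher and 26 (0.416%) lower. The treatment pairs share no library with each other, though each shares its libraries with the genotype pairs above. Of 6223 genes counted in both, 1 (0.0161%) was higher and 4 (0.0643%) were lower in each.

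The gene higher in both was Serpina3g, a serine protease inhibitor induced by interferon gamma, at 15.7, 33.3, 18.5 and 41.8 CPM (1.08 in Aire+/+ and 1.17 in Aire-/-). It belongs to a cluster of near copies, so the count is uncertain, and after thinning its Aire+/+ ratio was 0.54. The 4 lower genes were Spp1, Cxcl3, Ccl12 and Pf4. Spp1 was lower under anti-PD1 by log2 ratios of -1.36 in Aire+/+ and -1.30 in Aire-/-, the latter -0.95 after thinning. Cxcl3, a neutrophil attractant, stood at 174, 24.3, 31.8 and 13.9 CPM (-2.84 and -1.20), with the Aire+/+ isotype library alone high. With up to 3 C1q UMIs allowed the first was -1.68, and with no C1q UMI allowed the second was -0.94. Ccl12, a monocyte attractant, stood at 621, 293, 413 and 151 CPM (-1.09 and -1.46). Its Aire+/+ call ended under several alternatives, down to -0.64 after thinning, and so did that of Pf4 (-1.08, and -0.84 after thinning).

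In Aire-/-, Ms4a7 was lower under anti-PD1 by a log2 ratio of -2.53 (-2.85 to -2.24), Cd72 by -1.71, Cd63 by -1.31 and Pf4 by -4.41. The Pf4 ratio was -2.17 after thinning, and the anti-PD1 library held 4 Pf4 UMIs, all in 1 cell. This made 4 of 15 macrophage differentiation genes called lower and 0 higher, beside 0.416% and 0.24% of all genes. In Aire+/+, Pf4 was called lower as well (-1.08, and -0.84 after thinning), while Ms4a7 at 0.16, Cd72 at 0.43 and Cd63 at 0.18 were not. The list's 17 genes there had 1 called higher (Gpnmb, 1.85) and Pf4 alone lower, beside 0.11% and 0.261% of all genes. List medians were -0.12 in Aire-/- and 0.12 in Aire+/+, beside -0.01 and -0.01 over all genes. The difference between the genotypes in these ratios was not tested. Ccl7 was called lower in Aire-/- (-1.61) and not in Aire+/+ (-0.68).

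Interferon gamma genes were level between treatments, with medians of 0.08 in Aire+/+ and 0.03 in Aire-/- over 29 genes. Serpina3g was the 1 called in Aire+/+, and Serpina3g and Nos2 (1.15) the 2 in Aire-/-, where 0.11% and 0.24% of all genes were called higher. Single genes still differed, as Irf1 (0.59) and Iigp1 (0.72) did in Aire+/+. Type I interferon genes went opposite ways in the genotypes, at a median of 0.22 in Aire+/+ with 26 of 27 above 1 and -0.42 in Aire-/- with 26 of 27 below 1. Rsad2 showed it in single values, at 0.40 and -0.72. Whether these differ beyond library variation was not tested.

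Among other lists, hypoxia genes had medians of -0.14 and -0.32 with 15 and 17 of 20 below 1 and 0 called. Chemokines had 4 of 15 called lower in each genotype, beside 0.261% of all genes in Aire+/+ and 0.416% in Aire-/-, with medians of -0.06 and -0.40. Those were Cxcl1, Cxcl3, Ccl12 and Pf4 in Aire+/+ and Ccl7, Ccl12, Cxcl3 and Pf4 in Aire-/-. The Cxcl1 call (-1.26) ended with up to 3 C1q UMIs allowed (-0.93) and without members over 2 times the median UMIs (-0.91). Matrix genes had medians of -0.07 and -0.26, with Spp1 called lower in both and Mmp12 in Aire-/- (-3.22). MHC class II genes had medians of 0.12 and 0.27 with 0 called, and class I 0.08 and -0.08. Heat shock genes Hspa1a (-1.02, or -0.78 with no C1q UMI allowed) and Hspa1b (-1.34) were called lower in Aire-/-, with list medians of -0.05 and -0.11. Lysosomal medians were 0.05 and -0.17, with Cd63 called in Aire-/-. Lipid gene medians were 0.11 and -0.02, with Gpnmb higher and Ch25h, a cholesterol hydroxylase, lower in Aire+/+ (-1.88).

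The lists with 0 called in either treatment pair had small medians. They were -0.00 and 0.01 for classical monocyte genes, -0.10 and 0.15 for patrolling genes, and 0.00 and -0.06 for Ifitm genes. They were 0.06 and 0.06 for inflammatory cytokines, -0.17 and -0.03 for chemokine receptors, and -0.01 and -0.19 for checkpoint genes. The rest were -0.06 and -0.00 for scavenger receptors, -0.07 and -0.17 for Fc gamma receptors, 0.02 and -0.03 for transcription factors, -0.02 and -0.01 for oxidative stress and -0.00 and -0.07 for cell cycle genes. Thbs1 was higher under anti-PD1 in both genotypes and short of 2-fold (0.54 and 0.25).

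Several other genes were among the 10 largest treatment ratios in each direction. In Aire+/+ the 10 highest held Jdp2 (1.49), Klrb1b (1.35, and 0.92 after thinning), Sectm1a (1.35, and 0.88 with no C1q UMI allowed), TrnC, Gm4951 (1.03), Tmcc3 and Pecam1. Gm4951 lost its call under several alternatives, down to 0.74 by the mean of the cells' CPM. The 10 lowest held Serpinb2 (-3.50), Pgf (-1.27, and -0.75 without the richest member), Hist1h2bc (-1.26, and -0.90 after thinning) and the stress cytokine Gdf15 (-1.23, and -0.59 after thinning). In Aire-/- the 10 highest held Irs2 (1.16, and 0.24 after thinning), an adaptor of insulin signalling, Ddhd1 and Serpina3f (1.09, and 0.33 after thinning). The 10 lowest held Tmem119 (-2.38, and -1.37 after thinning), Car13 (-1.62) and Gdf3 (-1.45, and -0.79 after thinning). Gzma, Gzmb, Prf1, Xcl1 and Nkg7 led the highest there. Without lymphocyte-transcript members Gzma went from 6.14 to 0.73 and Gzmb from 4.08 to 0.99. Nkg7 went from 1.60 to 0.92 and Xcl1 from 1.88 to -0.59, so that all were short of the call. Of the Prf1 UMIs, 28 of 32 under isotype and 45 of 89 under anti-PD1 were in 1 cell each, so no call without those members is read for it. Its ratio of 1.93 was 0.95 with at least 10 Lyz2 UMIs, 0.33 after thinning and 0.79 without members over 2 times the median UMIs. In Aire+/+, leaving out lymphocyte-transcript members took Gzma from -5.18 to 1.48 and Gzmb from -2.68 to -0.69, on few UMIs.

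The comparison of tissues asked what sets monocytes in the tumor apart from those in the spleen of the same groups, and it alone was tested. The same thresholds found 460 of 8686 barcodes in the 4 splenic CD45+ libraries (173, 109, 112 and 66), with medians of 10092, 8691, 8668 and 8003 UMIs. Tumor monocytes carried an inflammatory, interferon, hypoxia and chemokine profile, and splenic ones more patrolling-type transcripts. In edgeR's quasi-likelihood test with Benjamini-Hochberg adjustment, 2503 of 8911 genes (28.1%) rose and 2194 (24.6%) fell in the tumor, of which 2401 and 2000 went the same way in all 4 conditions. The conditions stand in for replicates, the genes of the rule were not tested, and tumors were dissociated with enzymes and spleens by mechanical means, so that tissue and handling cannot be told apart.

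Values in this comparison are CPM scaled by TMM factors, 0.841 to 0.887 in tumor and 1.15 to 1.17 in spleen. The scaling adds 0.42 to each log2 ratio of plain CPM, so that medians between 0 and 0.42 take the other sign without it, and so can single genes. The median of all genes was -0.03. Il1b stood at 6534, 6061, 7295 and 6747 in tumor and 50.5, 29.0, 58.1 and 58.9 in spleen (log2 7.11, SE 0.12, adjusted p = 1.63e-16, higher in 4 of 4 conditions). All 19 tested genes of the inflammation list rose, with a median of 4.61, or 4.54 with the 3 genes at 0 UMIs in spleen set to their bound. Ptgs2, the inducible cyclooxygenase, rose by 7.33 (SE 0.31, adjusted p = 1.79e-09) and Tnf by 4.61 (SE 0.18, adjusted p = 2.16e-13), each higher in 4 of 4 conditions.

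Of 14 chemokines tested, 13 rose and 1, Ccl6, fell, with a median of 7.85, or 7.03 with the 4 genes at 0 set to their bound. Genes at 0 splenic UMIs, in this and every other list, passed the count filter only through the tumor. So did genes with only a few, such as Cxcl2 here and Hilpda below. Among named genes and list members, 17 were at 0 splenic UMIs and 6 at 1 or 2, and list counts include those on a list. How many others passed in this way was not counted. The rise of all such genes was fixed by that, and it supports nothing. Several were absent from the splenic cells. Ccl7 had 15660 UMIs in tumor members and 0 in spleen, at least 1159-fold against a floor of 3 counts over the splenic group. Ccl12 (10272 and 0 UMIs) was at least 760-fold higher. Vegfa, the angiogenic growth factor (4147 and 0), was at least 307-fold, the Cxcr3 ligand Cxcl11 (3517 and 0) at least 260-fold, and Dab2, an endocytic adaptor (2736 and 0), at least 202-fold. Timp1 (2354 and 0) was at least 174-fold and AA467197 (10001 and 0), at least 740-fold. Cxcl2, a neutrophil attractant, had 65154 UMIs against 1, a ratio of 14469 with a counting interval of 2597 to 571492. That ratio is description only, as Cxcl2 also passed the filter through the tumor alone. Gzmc (3015 and 0) was at least 223-fold higher, with the few cells above holding most of it.

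Interferon genes rose broadly. All 27 type I interferon genes rose, with a median of 3.11, and 26 of 29 interferon gamma genes rose while 1 fell, with a median of 2.70, unchanged with its gene at 0 set to its bound. Isg15 stood at 3705, 3891, 4567 and 3364 in tumor and 101, 126, 86.7 and 70.7 in spleen (5.33, SE 0.12, adjusted p = 1.17e-14, higher in 4 of 4 conditions). Gbp2 stood at 714, 745, 1469 and 1481 against 32.0, 33.5, 46.1 and 90.9 (4.50, SE 0.13, adjusted p = 1.7e-14, 4 of 4), and Cd274 rose by 4.12 (SE 0.16, adjusted p = 4.86e-13, 4 of 4). The gene that fell was the receptor chain Ifngr1, at 292, 314, 306 and 359 against 636, 755, 669 and 769 (-1.15, SE 0.08, adjusted p = 8.34e-10, lower in 4 of 4).

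All 20 hypoxia and glycolysis genes rose, with a median of 2.65, the same with Vegfa at its bound. Hilpda, a lipid droplet protein induced by low oxygen, stood at 386, 338, 239.8 and 221 against 2.58, 3.62, 0.923 and 5.05. With so few splenic UMIs Hilpda passed the count filter only through the tumor, and these values describe it without support from the test. The glucose transporter Slc2a1 rose by 4.41 (SE 0.14, adjusted p = 1.7e-14, 4 of 4). Cd14 stood at 1854, 2089, 2141 and 2165 against 28.9, 19.9, 37.8 and 37.0 (6.08, SE 0.13, adjusted p = 1.58e-16, 4 of 4). Thbs1 stood at 1074, 1584, 1956 and 2293 against 19.1, 12.7, 24.0 and 15.2 (6.44, SE 0.16, adjusted p = 7.25e-13, 4 of 4), so that it marked monocytes of the tumor far more than those of the spleen. Macrophage differentiation genes rose in 9 of 15 and fell in 2, with a median of 2.26.

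Counts on the classical monocyte list were near the shares over all genes, and no direction is read from them. Of 18 classical genes 7 rose and 4 fell, beside 28.1% and 24.6% of all genes. Their median was 0.12, a sign that plain CPM turns, beside -0.03 over all genes. Ccr2 stood at 487, 443, 556 and 629 against 687, 538, 530 and 618 and did not pass (-0.18, SE 0.10, adjusted p = 0.133, higher in 2 of 4). Without the scaling, Ccr2 at 426, 382, 459 and 526 CPM in tumor was below 773, 611, 595 and 695 in spleen in all 4 conditions. Csf1r (-0.27, SE 0.09, adjusted p = 0.0229, higher in 1 of 4) lost its call without either Aire-/- condition (-0.22 without isotype and -0.16 without anti-PD1). Vcan, a matrix proteoglycan of classical monocytes (1.85, SE 0.37, adjusted p = 0.0157, 4 of 4), lost its call without Aire-/- isotype (1.77) or Aire+/+ anti-PD1 (1.82).

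Patrolling genes fell in 13 of 15 and rose in 1, with a median of -2.04. Ace stood at 99.7, 80.2, 101 and 95.7 in tumor and 327, 417, 362 and 458 in spleen (-2.04, SE 0.11, adjusted p = 5.94e-11, lower in 4 of 4). The fractalkine receptor gene Cx3cr1 stood at 77.6, 82.6, 68.4 and 74.9 against 286, 277, 288 and 347 (-1.97, SE 0.10, adjusted p = 1.08e-11, 4 of 4), and Ear2, Spn, Treml4, Adgre4 and Fabp4 fell as well. The exception was Nr4a1, the nuclear receptor that patrolling monocytes need, also an immediate early gene, which rose by 1.48 (SE 0.09, adjusted p = 6.82e-11, 4 of 4). Immediate early and heat shock genes, which dissociation can turn on, rose in 14 of 18 and fell in 1, with a median of 2.65. Outside the lists, Il16 (-3.17), Tmcc1 (-2.99), Nfe2 (-2.57), Cbfa2t3 (-2.32) and Lyl1 (-2.21) fell, each lower in 4 of 4 conditions, as did Hpgd, the enzyme that inactivates prostaglandins, at 20.6, 26.0, 39.4 and 42.3 against 173, 194, 308 and 340.0 (-2.98, SE 0.10, adjusted p = 3.44e-14, 4 of 4).

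**Figure D3:**
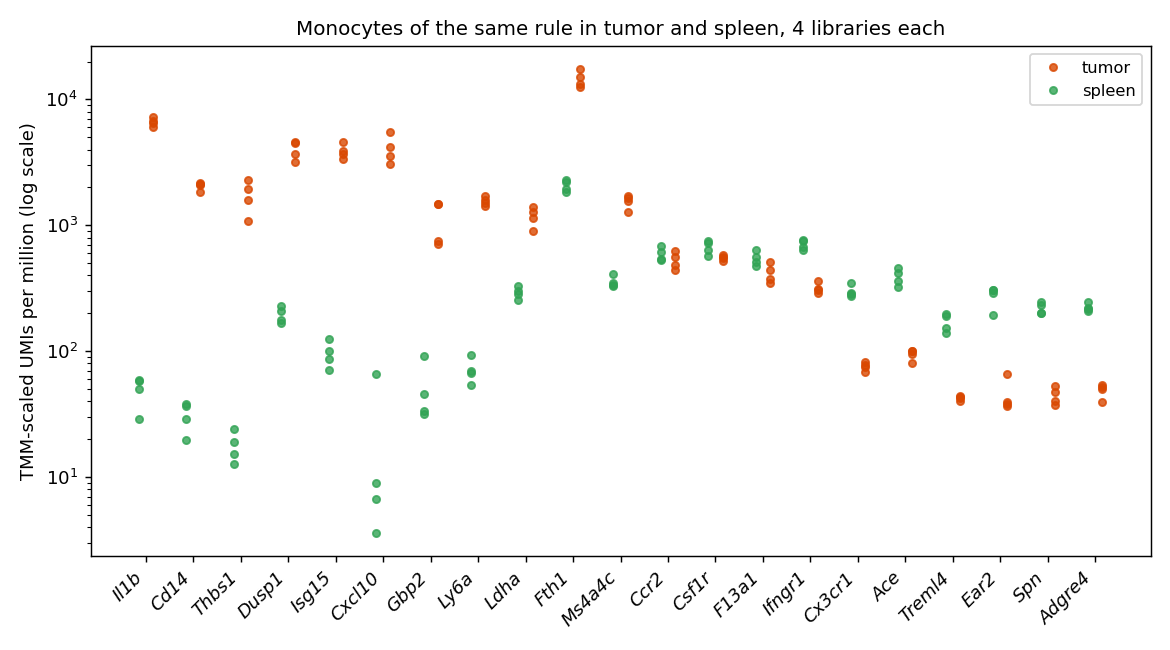
Each point is the TMM-scaled CPM (y axis, log scale) of a gene in the monocytes of 1 library, 4 from tumor and 4 from spleen. Il1b lies between 6061 and 7295 in tumor and between 29.0 and 58.9 in spleen, Ccr2 overlaps between the tissues on this scale and not in plain CPM, and Ace is lower in all tumor libraries.

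Counts for the other lists stand beside 28.1% of all genes up and 24.6% down. Up and down counts were 3 and 0 of 4 for Ifitm genes (median 0.90) and 6 and 1 of 10 for MHC class II (0.74). They were 17 and 0 of 17 for class I (0.97), 6 and 1 of 8 for chemokine receptors (2.23), and 14 and 1 of 19 for matrix genes (2.34, the same at their bounds). For checkpoint genes they were 12 and 2 of 15 (2.22), for scavenger receptors 6 and 2 of 11 (1.47), for Fc gamma receptors 5 and 0 of 5 (1.68) and for lysosomal genes 14 and 3 of 19 (0.92). Lipid genes had 6 and 4 of 13 (0.54), transcription factors 15 and 3 of 22 (1.25), oxidative stress genes 12 and 3 of 17 (0.67), and cell cycle genes 3 and 1 of 11 (0.28, a sign that plain CPM turns). The cell cycle count up is near the share over all genes, and no rise is read from it.

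A last description sets tumor monocytes beside C1q macrophages of the same libraries, a contrast that the rule itself made. Of 1598 genes with enough counts, 52 (3.25%) were at least 2-fold higher in monocytes in all 4 libraries and 29 (1.81%) lower, and nothing is read from those counts. Haptoglobin, Hp, stood at 443, 385, 405 and 502 CPM in monocytes and 39.6, 22.8, 59.96 and 97.5 in macrophages, a mean log2 ratio of 3.17. The interferon-induced membrane gene Ifitm6 had a mean of 3.21, the protease inhibitor Slpi 2.91 and glutathione reductase, Gsr, 2.52. Mgst1, Adgre5, Vcan, Lsp1 and Gzmc were also among the 10 highest. On the other side were the tetraspanin Cd81 (-4.30), Ms4a7 (-2.94), Zmynd15 (-2.92), Cd72 (-2.76), Pf4 (-2.63), Slamf9 (-2.45), Tmem119 (-2.32), the creatine enzyme Gatm (-2.31), Cd63 (-2.11) and Mmp12 (-2.11).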

How the data were processed

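The authors aligned the reads to GRCm38 with Cell Ranger, and the deposited counts are UMI counts per barcode and gene. Rows of a symbol were summed, and 8 of 440 symbols on 31 gene lists found no match. Members' UMIs were summed per library. Tumor and splenic sums were compared in edgeR 4.0.16 (R 4.3.3) with a quasi-likelihood fit, TMM scaling and condition as a block. In a simulation run before it, 176 of 188 changed genes among 9001 tested were recovered, with 5 false calls. The changes there were few, balanced up and down, of a fixed size and spread and without condition effects. In the data 28.1% of genes rose and 24.6% fell, so the simulation does not check the scaling or the false calls in that setting. The naming rule takes the markers, each list's most abundant gene and 4 largest ratios, the 10 largest ratios in each direction, up to 15 genes called in both pairs, and, for tissues and macrophages, the 10 largest ratios at 100 CPM or more and, between tissues, list members. Members and lists were chosen with earlier results of these data known. Python 3.11.15, numpy 2.4.6, scipy 1.17.1 and pandas 2.3.3 were used.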

Additional observations from a re-analysis of the deposited data

Results flagged for a closer look

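The monocyte thresholds were also met by barcodes in CD8 libraries, which were not analysed here: 4 in the Aire+/+ isotype tumor library, 13 in the Aire+/+ isotype spleen library, 9 in the Aire+/+ anti-PD1 spleen library, 4 in the Aire-/- isotype spleen library and 7 in the Aire-/- anti-PD1 spleen library, with 1 more in each anti-PD1 tumor library, at or under the limit that a count of 0 allows.

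Granzyme genes in tumor monocytes had ratios of opposite sign between groups. The log2 ratio of anti-PD1 to isotype for Gzma was -5.18 in Aire+/+ and 6.14 in Aire-/-, and for Gzmb -2.68 in Aire+/+ and 4.08 in Aire-/-. The log2 ratio of Aire-/- to Aire+/+ for Gzma was 8.44 under anti-PD1 and -2.89 under isotype. Without members that carried lymphocyte transcripts all 4 Gzma ratios were above 0, at 1.48 and 0.73 for treatment and 1.96 and 2.71 for genotype, in the same order, and Gzmb was at -0.69 and 0.99, short of 2-fold. Those members were themselves picked by lymphocyte genes, so that few UMIs were left. Of 102 Gzma UMIs in Aire+/+ isotype 101 were in 1 cell, Aire+/+ anti-PD1 held 2 and Aire-/- isotype 9. Nothing is read from these signs. The differences were not tested.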

How the results depend on the processing

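The share of members was most open to its denominator. With C1q barcodes out of the total, the Aire-/- to Aire+/+ ratio under anti-PD1 went from 0.804 to 0.583, with T cell barcodes out it turned to 1.232, and among Lyz2 barcodes to 1.514. Under isotype it was 0.845 with C1q barcodes out and 1.141 among Lyz2 barcodes. The anti-PD1 to isotype ratio in Aire-/- was 0.739, and 0.578 with C1q barcodes out, 1.101 with T cell barcodes out and 1.324 among Lyz2 barcodes.

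Genes past 2-fold numbered 168 (genotype, anti-PD1), 97 (genotype, isotype), 27 (treatment, Aire+/+) and 41 (treatment, Aire-/-). With barcodes thinned to 3000 UMIs they were 78, 46, 7 and 17, and with at least 30 UMIs asked for 436, 311, 123 and 182. In both genotype pairs 22 genes were higher and 14 lower, against 10 and 6 after thinning and 47 and 48 at 30 UMIs.

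In both treatment pairs 1 gene was higher and 4 were lower. The higher count was 0 with C1q at 0, after thinning, without members over 2 times the median UMIs, without lymphocyte-transcript members, by the mean of the cells' CPM and without the richest member, and 10 at 30 UMIs. The lower count was 2 with C1q at most 3, 0 after thinning, 2 without members over 2 times the median, 2 by the mean of the cells' CPM and 9 at 30 UMIs.

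Single genes turned sign. Klrd1 (Aire-/- to Aire+/+, anti-PD1) was -0.03 without members over 2 times the median UMIs. Gzma under isotype was 2.71 without lymphocyte-transcript members and 3.42 without the richest member. Its treatment ratio in Aire+/+ was 1.48 and 0.49, and these ratios rest on few UMIs. After thinning, Slc27a1 was 0.14 and Mgl2 2.43 under isotype. Xcl1 (treatment, Aire-/-) was -0.75 without members over 2 times the median, -0.59 without lymphocyte-transcript members and -0.77 without the richest member.

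Between tissues, thinning to 1500 UMIs left 1034 genes higher and 874 lower in tumor monocytes, from 2503 and 2194, and Itgax went to -0.08. With each condition left out in turn, 2160 to 2569 were higher and 1809 to 2203 lower. DESeq2 called 2050 and 1542. The alternatives without lymphocyte-transcript members and without the richest member were chosen after seeing the data. Of single values, 8988 kept their direction and side of the threshold or stayed within their interval, 744 left their interval, 100 lost and 34 gained a call in the tissue test, and 11 turned sign. The causes were not tested.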
